A study of Rattus norvegicus with 9 samples.

Results

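The integrated stress response factors described here are 7 rat genes, Atf4, Ddit3, Atf3, Trib3, Ppp1r15a, Chac1 and Nupr1. They were taken by symbol from the 20645 genes in the authors' table. The rule uses no measured value, but the genes were chosen with earlier results of these data known. The libraries came from INS-1E cells, a rat insulinoma line used as a model of the pancreatic beta cell, of which 3 groups of 3 libraries were sequenced. All 3 groups were treated for 24 h. The BSA group received fatty acid-free BSA, and the PA group received palmitic acid (0.5 mM per the study's methods). The PA + C3G group received the same PA together with cyanidin-3-O-glucoside (50 µM per the methods). No group received C3G without PA, so the effect of C3G could be read only on cells that also received PA. INS-1E is an immortal line of tumour origin. The labels number the replicates without saying whether they were separate cultures, so p-values measure the spread between these libraries.

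The integrated stress response begins when an eIF2 kinase (HRI, PKR, PERK or GCN2) phosphorylates the alpha subunit of eIF2. General protein synthesis then falls, while the mRNA of Atf4 is translated more. ATF4 protein switches on genes for amino acid supply and redox balance, and with stronger or longer stress also Ddit3, which encodes CHOP. Beta cells depend on this control because they make large amounts of proinsulin in the endoplasmic reticulum, and loss of the kinase PERK causes diabetes early in life. RNA-seq measures neither the phosphorylation of eIF2 nor translation, and the values given here are mRNA levels only.

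Among the 7 genes, Atf4, Ddit3 and Atf3 encode bZIP transcription factors. Nupr1 encodes a small stress-inducible chromatin protein. Trib3 encodes a pseudokinase that restrains ATF4 and CHOP activity as well as AKT. Ppp1r15a encodes GADD34, which brings protein phosphatase 1 to eIF2 and so reverses the phosphorylation. Chac1 encodes an enzyme that breaks down glutathione. ATF4 acts through a C/EBP-ATF response element (CARE), and ATF/CREB proteins through the cAMP response element (CRE).

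The 250 bases before the start of 5 of the genes are shown because these include genes that moved in opposite directions in the comparisons that follow. Trib3, also shown, rose with PA but did not pass the test when C3G was added. The windows were read from RefSeq promoters of the rat assembly GRCr8, in which 6 of the 7 genes were found, and Atf3 was not. Each is printed 5′ to 3′ on the strand of the gene, and capitals mark a match to the CARE core (TGATGNAA, or TTNCATCA on the other strand) or to the CRE (TGACGTCA, the same on both strands). These motifs do not overlap with each other in the windows shown.
Nupr1 (chr1:190645902-190646151, minus strand): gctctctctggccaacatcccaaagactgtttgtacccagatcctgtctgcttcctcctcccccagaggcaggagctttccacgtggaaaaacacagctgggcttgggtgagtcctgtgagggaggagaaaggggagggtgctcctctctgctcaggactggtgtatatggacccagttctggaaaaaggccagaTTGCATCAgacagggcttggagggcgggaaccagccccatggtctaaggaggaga
Chac1 (chr3:126795881-126796130, plus strand): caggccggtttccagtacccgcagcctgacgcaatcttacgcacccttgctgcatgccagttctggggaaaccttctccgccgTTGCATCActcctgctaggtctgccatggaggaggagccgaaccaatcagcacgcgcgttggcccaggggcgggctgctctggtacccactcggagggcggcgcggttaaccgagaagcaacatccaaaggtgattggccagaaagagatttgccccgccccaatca
Trib3 (chr3:161275534-161275783, minus strand): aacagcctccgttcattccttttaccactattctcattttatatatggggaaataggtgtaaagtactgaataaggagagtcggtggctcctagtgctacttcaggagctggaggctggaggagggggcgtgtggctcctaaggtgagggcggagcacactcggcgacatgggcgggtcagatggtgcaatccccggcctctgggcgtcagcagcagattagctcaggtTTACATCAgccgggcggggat
Ppp1r15a (chr1:105139597-105139846, minus strand): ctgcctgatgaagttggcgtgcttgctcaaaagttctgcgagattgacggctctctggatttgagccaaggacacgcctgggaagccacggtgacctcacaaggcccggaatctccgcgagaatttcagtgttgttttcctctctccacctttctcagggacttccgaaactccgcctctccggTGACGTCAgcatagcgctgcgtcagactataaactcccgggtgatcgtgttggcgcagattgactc
Ddit3 (chr7:65001445-65001694, plus strand): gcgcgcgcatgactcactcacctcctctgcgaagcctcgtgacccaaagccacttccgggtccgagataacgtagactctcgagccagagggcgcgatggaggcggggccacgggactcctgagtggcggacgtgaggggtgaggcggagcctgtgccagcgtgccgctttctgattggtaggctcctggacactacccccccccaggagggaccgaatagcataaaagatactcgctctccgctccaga
The CARE core was found in Nupr1 at bases −55 to −48 from the start, in Chac1 at bases −167 to −160, and in Trib3 at bases −21 to −14, each time on the other strand. Ppp1r15a held the CRE at bases −66 to −59. Neither motif was found in the windows of Ddit3 and Atf4 (chr7:113684431-113684680, plus strand, not shown). Of the 33469 rat promoters of the same length, 3.4% held the CARE core and 1.59% held the CRE. Bases farther from the start were not searched, so a gene without a match here may hold the motif outside its window. The matches describe the letters of these windows, and binding was not measured. Whether a motif goes with the direction of change was not tested.

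In the authors' table, whose genome build is not given in the sources used here, Atf4 (ENSRNOG00000017801) lies on chromosome 7 from 121480723 to 121482772. Ddit3 (ENSRNOG00000006789) lies on the same chromosome from 70580198 to 70585084. The remaining genes are Atf3 (ENSRNOG00000003745) on chromosome 13, Trib3 (ENSRNOG00000007319) and Chac1 (ENSRNOG00000014387) on chromosome 3, and Ppp1r15a (ENSRNOG00000020938) and Nupr1 (ENSRNOG00000019206) on chromosome 1. All 7 are protein-coding. The entry under the symbol Nupr1 carries the description of a 1-like 1 copy. A near-identical entry, Nupr1l1 (ENSRNOG00000050922), held 96.6 to 98.3% as many counts as Nupr1 in each library. How reads were divided between the pair is unknown, so the level of Nupr1 is uncertain. Ddit3 overlaps Mars1, on the opposite strand, by 72 bases. The use of strand in counting is not stated. Mars1 did not pass the test in PA versus BSA or PA + C3G versus PA, and was higher by 0.16 (adjusted p = 0.0424) in PA + C3G versus BSA.

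The authors deposited estimated counts and FPKM, that is, fragments scaled to gene length and to how many fragments each library mapped. Total estimated counts lay between 45559993 and 66730721 per library, and those of the 7 genes ranged from 943 for Atf3 in a BSA library to 43838 for Atf4. The identity of the cells was checked on markers. Of 15 beta cell genes, 14 were in the table, and all of these reached 1 FPKM in each group. Their summed level was 50357 to 51052 FPKM in the BSA group, 23370 to 23809 in the PA group and 47949 to 53430 in the PA + C3G group. Of 16 markers of other islet and pancreas cells, 10 were in the table, and their summed level was at most 32.4 FPKM in any library. The highest of these was Gcg, encoding glucagon, with 20.5, 3.57 and 13.3 FPKM in the BSA, PA and PA + C3G groups. In bulk RNA, a change in the number of cells of a type and a change of RNA per cell cannot be told apart. The part of these marker levels in the results was not tested.

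PA raised 5 of the 7 genes above BSA (Atf4, Ddit3, Atf3, Trib3 and Ppp1r15a) and lowered Nupr1, while Chac1 did not pass the test. Tests ran over the 12958 genes whose FPKM averaged 1 or more, with the quasi-likelihood method of edgeR, and a gene was called at a Benjamini-Hochberg adjusted p under 0.05. In this comparison 51.0% of all tested genes were called, 25.8% higher and 25.2% lower. The median log2 fold change of the 7 genes was 0.80, against 0.003 over all tested genes. The groups did not overlap for 6 of the 7, and for 59.9% of all tested genes.

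When C3G was added to PA, Ddit3 and Ppp1r15a fell, Chac1 and Nupr1 rose, and Atf4, Atf3 and Trib3 did not pass the test. The background of this comparison was 21.2% of tested genes called, 11.1% higher and 10.2% lower. With 2 members higher and 2 lower, the median log2 fold change of the 7 was −0.03, against −0.0007 over all tested genes. The groups did not overlap for 5 of the 7, and for 39.5% of all tested genes. Genes among the 7 thus changed in opposite directions in the same libraries.

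All 7 genes were higher in the PA + C3G group than in the BSA group, with no overlap between the groups for any of them. Over all tested genes the groups did not overlap for 50.3%. Without BSA replicate 3, Chac1 and Nupr1 lost their calls and 5 of the 7 remained, and Chac1 was not called in 9 of 20 alternatives. Of all tested genes, 36.9% were called in this comparison, 19.0% higher and 17.9% lower. The median log2 fold change of the 7 was 0.62, against 0.007 over all genes. The 3 comparisons share their libraries and are not independent of each other.

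**Figure D1:**
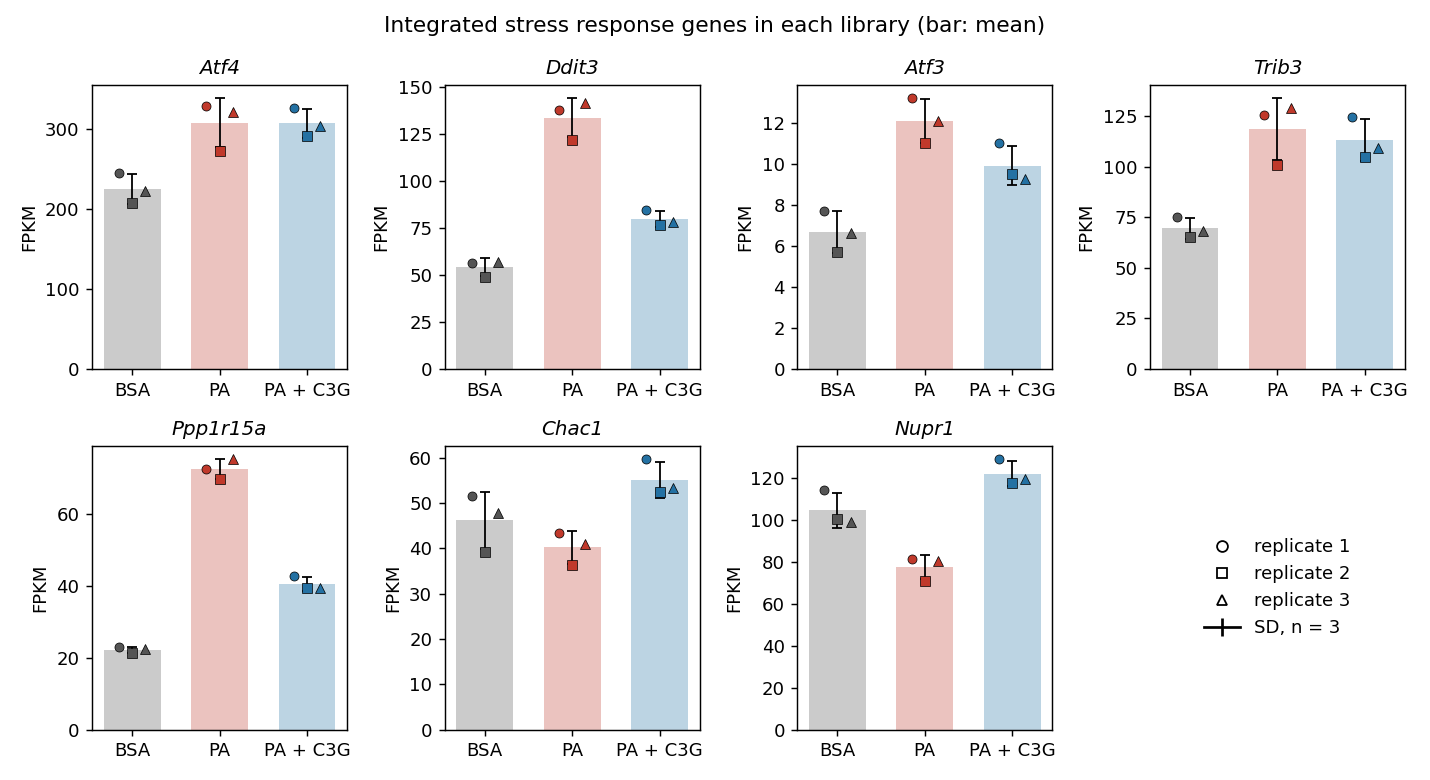
FPKM of each of the 7 genes in each library of the BSA, PA and PA + C3G groups (points), with the group mean (bar) and SD (line, n = 3). Ddit3 and Ppp1r15a peak in the PA group, Atf4 and Trib3 are alike in both PA-treated groups, and Chac1 and Nupr1 are lowest in the PA group, where Chac1 did not pass the test against BSA.

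Atf4, the transcription factor at the head of the group, measured 244, 207 and 222 FPKM in BSA replicates 1 to 3, 329, 272 and 321 FPKM in the PA replicates, and 326, 291 and 304 FPKM in the PA + C3G replicates. Each library with PA lay above each BSA library, and the libraries with and without C3G overlapped. The log2 fold change of PA over BSA was 0.48 (SE 0.08, adjusted p = 0.000815). Adding C3G changed Atf4 by 0.04 (SE 0.08, adjusted p = 0.804), with a 95% interval from −0.15 to 0.22. With the FPKM of every library scaled to one common sum, this difference was −0.055. Against BSA, the PA + C3G group was higher by 0.51 on the log2 scale (SE 0.08, adjusted p = 0.000856).

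Ddit3 encodes CHOP, a transcription factor linked to cell death under lasting stress. Its level was 56.6, 48.8 and 57.2 FPKM in the BSA replicates, 138, 122 and 141 FPKM in the PA replicates, and 84.7, 76.7 and 78.2 FPKM in the PA + C3G replicates. The 3 groups were fully separated, with the PA + C3G group between the others. PA raised Ddit3 by 1.33 on the log2 scale, that is 2.51-fold (SE 0.08, adjusted p = 6.50e-07). Adding C3G changed it by −0.70 (SE 0.08, adjusted p = 0.000399). The PA + C3G group stayed above BSA by 0.62 (SE 0.08, adjusted p = 0.000167).

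Atf3, an early stress-response factor of the same bZIP family, was the least abundant of the 7 by FPKM. It measured 7.73, 5.72 and 6.62 FPKM with BSA, 13.2, 11.1 and 12.1 FPKM with PA, and 11.03, 9.51 and 9.27 FPKM with PA + C3G. Here too the PA + C3G libraries lay between the other groups, although the highest of them (11.03) was close to the lowest PA library (11.06). The log2 fold change was 0.88 for PA over BSA (SE 0.12, adjusted p = 0.000185). For PA + C3G over PA it was −0.25 (SE 0.12, adjusted p = 0.169, 95% interval from −0.51 to 0.01). With the replicate number as a block in the fit, Atf3 was called lower with C3G than without it. Atf3 stayed above BSA with C3G, by 0.63 (SE 0.12, adjusted p = 0.00244).

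Nupr1, the chromatin protein, took the opposite course. It measured 114, 101 and 99.2 FPKM in the BSA replicates, 81.3, 71.0 and 80.6 FPKM in the PA replicates, and 129, 118 and 120 FPKM in the PA + C3G replicates. Each PA library was below each BSA library, and each PA + C3G library was above both. The log2 fold change was −0.41 for PA over BSA (SE 0.07, adjusted p = 0.000975), 0.69 for PA + C3G over PA (SE 0.07, adjusted p = 0.000321) and 0.28 for PA + C3G over BSA (SE 0.07, adjusted p = 0.0110). With the counts of Nupr1 and Nupr1l1 added together, an alternative chosen after the data were seen, the values were −0.41, 0.69 and 0.28. Without BSA replicate 3, PA + C3G over BSA was 0.24 (adjusted p = 0.0528).

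**Figure D2:**
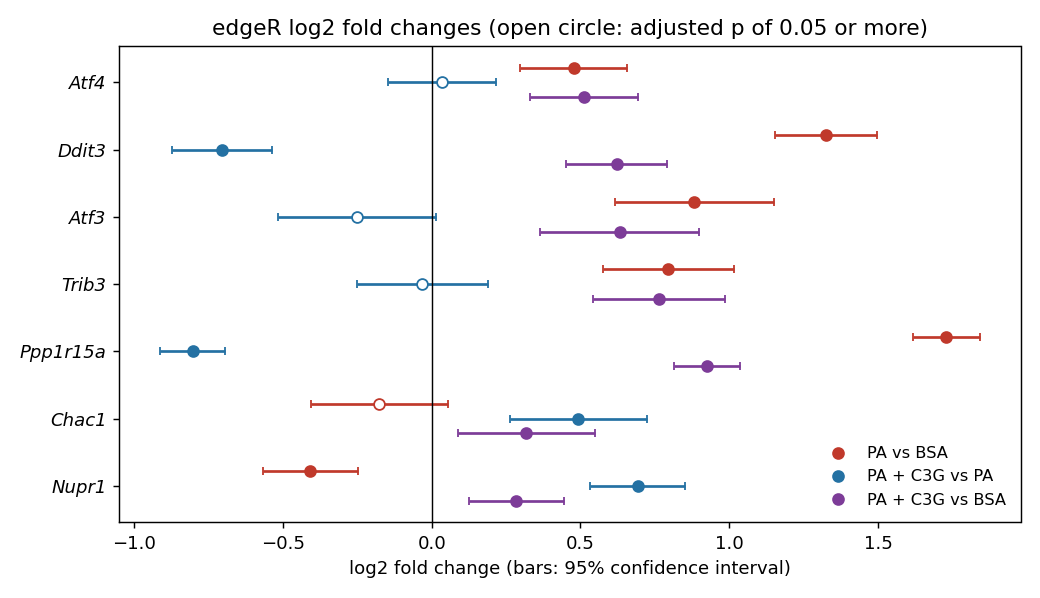
Log2 fold changes from edgeR (x axis) for each of the 7 genes (y axis) in the 3 comparisons, with 95% confidence intervals as bars. Filled circles have an adjusted p under 0.05. For Ddit3 and Ppp1r15a the C3G effect lies left of 0, for Chac1 and Nupr1 right of 0, and for Atf4, Atf3 and Trib3 the interval includes 0.

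Trib3, the pseudokinase, resembled Atf4 in being higher in both groups given PA, although its log2 fold change with PA was larger (0.48 for Atf4). Its FPKM were 75.2, 65.0 and 68.0 with BSA, 125, 101 and 129 with PA, and 125, 105 and 109 with PA + C3G. Both groups given PA lay wholly above BSA and overlapped each other. PA raised it by 0.80 on the log2 scale (SE 0.10, adjusted p = 0.000106). The difference on adding C3G was −0.03 (SE 0.10, adjusted p = 0.858), with a 95% interval from −0.25 to 0.19, and its sign turned when some libraries were left out (0.03 without PA replicate 3, 0.01 without PA replicate 1 and 0.02 without PA + C3G replicate 2). Against BSA the PA + C3G group was higher by 0.76 (SE 0.10, adjusted p = 0.000240).

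Ppp1r15a, the phosphatase subunit that reverses eIF2 phosphorylation, had the largest difference of the 7 in each comparison. The BSA replicates measured 23.0, 21.3 and 22.5 FPKM, the PA replicates 72.6, 69.8 and 75.4 FPKM, and the PA + C3G replicates 42.8, 39.5 and 39.4 FPKM. No library of one group reached the range of another. PA raised Ppp1r15a by 1.73 on the log2 scale, or 3.31-fold (SE 0.05, adjusted p = 1.74e-08), and it held rank 113 from the top among the 12958 tested genes. The change with C3G was −0.80 (SE 0.05, adjusted p = 2.71e-05), and the PA + C3G group stayed above BSA by 0.93 (SE 0.05, adjusted p = 8.85e-07). Ppp1r15a and Ddit3 thus shared both the direction and the order of the groups.

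Chac1, the glutathione-degrading enzyme, measured 51.6, 39.2 and 47.7 FPKM with BSA, 43.4, 36.3 and 40.9 FPKM with PA, and 59.7, 52.5 and 53.2 FPKM with PA + C3G. The BSA and PA libraries overlapped, whereas each PA + C3G library was above all others. PA over BSA gave −0.18 on the log2 scale (SE 0.10, adjusted p = 0.183, 95% interval from −0.41 to 0.05). Without BSA replicate 2, the lowest BSA library, the value was −0.29 (adjusted p = 0.0205). With the replicate number as a block in the fit, Chac1 was also called lower with PA than with BSA. Adding C3G raised Chac1 by 0.49 (SE 0.10, adjusted p = 0.00918). Its rise over BSA, 0.32 (SE 0.10, adjusted p = 0.0356), was close to the threshold and did not pass it in 9 of 20 alternatives, among them leaving out BSA replicate 2 (0.20, adjusted p = 0.101), BSA replicate 3 (0.33, 0.0717), PA replicate 3 (0.32, 0.0515), or PA + C3G replicate 1 (0.25, 0.125), 2 (0.34, 0.0510) or 3 (0.34, 0.0634).

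The order of the levels, compared by FPKM and so per gene length, changed between the groups. With BSA it ran from Atf4 (224.5 ± 18.7 FPKM, SD, n = 3) through Nupr1 (105 ± 8.32), Trib3 (69.4 ± 5.25), Ddit3 (54.2 ± 4.70), Chac1 (46.2 ± 6.36) and Ppp1r15a (22.3 ± 0.866) to Atf3 (6.69 ± 1.01). Only Ddit3 and Chac1 overlapped as neighbours. With PA, Atf4 (307 ± 30.6) was followed by Ddit3 (134 ± 10.4) and Trib3 (118 ± 15.2), which overlapped. Nupr1 (77.6 ± 5.74) and Ppp1r15a (72.6 ± 2.77) came next and also overlapped, ahead of Chac1 (40.2 ± 3.62) and Atf3 (12.1 ± 1.08). Adding C3G returned Nupr1 to the second place (122 ± 6.07), where it overlapped with Trib3 (113 ± 10.3). Below them came Ddit3 (79.9 ± 4.26), Chac1 (55.1 ± 3.94), Ppp1r15a (40.6 ± 1.94) and Atf3 (9.94 ± 0.956), each separated from its neighbour. The places of Nupr1 are uncertain, because how reads were divided between it and its copy Nupr1l1 is unknown. Nupr1l1 measured 97.5, 72.1 and 113 FPKM with BSA, PA and PA + C3G.

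To set aside differences that all 7 genes share within a library, the FPKM of each gene was also expressed as a percentage of Atf4 in the same library. Ddit3 stood at 24.2% ± 1.35 of Atf4 with BSA, 43.6% ± 1.48 with PA and 26.0% ± 0.325 with PA + C3G (SD, n = 3). Ppp1r15a stood at 9.95% ± 0.456, 23.7% ± 1.78 and 13.2% ± 0.328 in the same order. The ratio of both genes to Atf4 was thus closer to BSA with C3G than without it.

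Nupr1 stood at 46.7% ± 2.03 of Atf4 with BSA, 25.3% ± 0.698 with PA and 39.9% ± 0.639 with PA + C3G. Chac1 gave 20.5% ± 1.38, 13.1% ± 0.308 and 17.96% ± 0.397. Relative to Atf4, therefore, both genes were lowest in the PA group and stayed below the BSA level with C3G, although their own levels with C3G lay above BSA. Trib3 gave 30.9% ± 0.445, 38.5% ± 1.56 and 36.8% ± 1.26, and Atf3 gave 2.97% ± 0.202, 3.95% ± 0.156 and 3.24% ± 0.168. In 16 of 18 ratio comparisons the groups did not overlap, the others being Trib3 for PA + C3G versus PA and Atf3 for PA + C3G versus BSA. As a ratio to Atf4, the groups did not overlap for 66.5% of the other tested genes in PA versus BSA (6 of 6 members), 23.0% in PA + C3G versus PA (5 of 6) and 75.1% in PA + C3G versus BSA (5 of 6). An exact two-sided permutation test of 3 against 3 libraries cannot give a p below 0.1, which each of the 16 reached (adjusted p = 0.1125 over 18 tests), so none could pass the threshold.

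**Figure D3:**
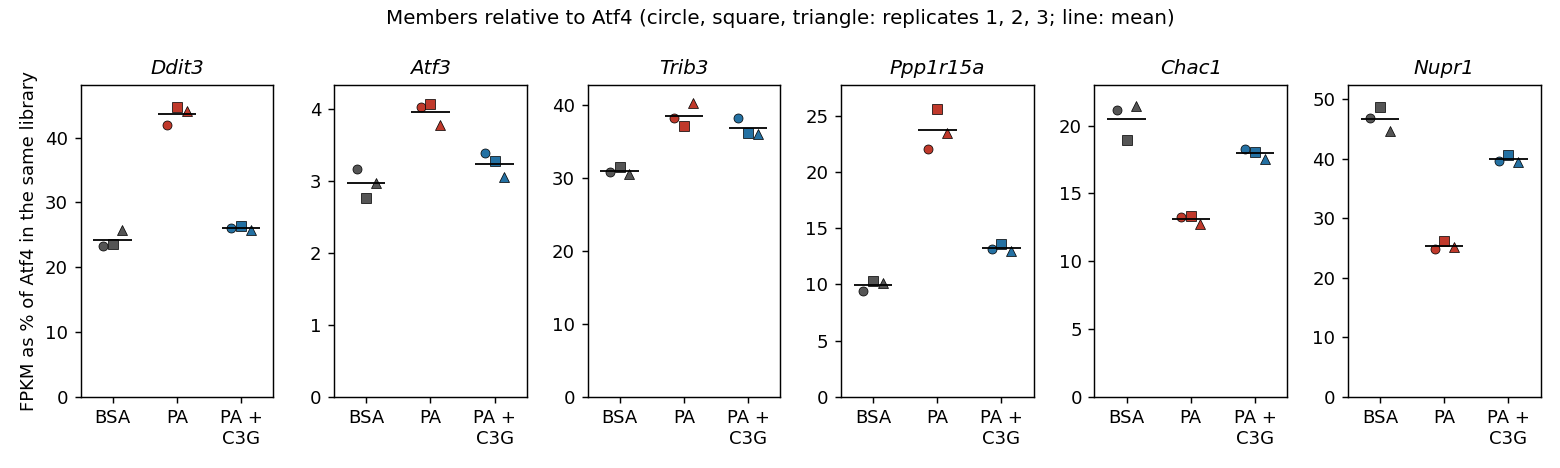
FPKM of 6 genes as a percentage of Atf4 in the same library (y axis, linear and from 0) in the BSA, PA and PA + C3G groups. Points are libraries and lines are group means. The means for Nupr1 are 46.7%, 25.3% and 39.9% and those for Ddit3 24.2%, 43.6% and 26.0%, and no p here can go below 0.1.

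The wider pathway was described with 3 lists. Of 19 genes for eIF2 kinases and the control of eIF2, all 19 were tested. Compared with BSA, PA raised 11 of them and lowered 5 (median log2 fold change 0.16, against 0.003 over all tested genes, of which 25.8% were higher and 25.2% lower). Eif2ak3, encoding PERK, the kinase of the endoplasmic reticulum, rose from 9.003 ± 0.731 to 22.2 ± 0.747 FPKM (log2 fold change 1.33, adjusted p = 1.85e-07). Eif2ak4, encoding the amino acid sensor GCN2, rose by 0.56 (adjusted p = 2.35e-05), and Eif2ak1, encoding the heme-regulated kinase HRI, by 0.15 (adjusted p = 0.0315). The kinase gene Eif2ak2, encoding PKR, which senses double-stranded RNA, fell by 0.36 (adjusted p = 0.00187). The remaining genes named by p-value were Dnajc3, encoding a chaperone that inhibits PERK, which rose by 1.13, and Qrich1, a transcriptional regulator, which rose by 0.40.

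With C3G added to PA, none of the 19 was higher and 4 were lower (median −0.07), so that the share called was close to the 21.2% of all tested genes. These were Eif2ak3 at −0.65 (adjusted p = 0.000214), Eif2s3, encoding the gamma subunit of eIF2, at −0.38, Eif2ak4 at −0.29 and Qrich1 at −0.23. The values of Eif2ak1 (0.03, adjusted p = 0.703) and Eif2ak2 (0.16, adjusted p = 0.134) did not pass the test. Against BSA, 7 were higher and 3 lower with PA + C3G (median 0.11), where 19.0% of all tested genes were higher and 17.9% lower. The kinase genes Eif2ak3 (0.68), Eif2ak4 (0.27) and Eif2ak1 (0.18) were among the higher ones, Eif2ak2 (−0.20, adjusted p = 0.049995) among the lower ones at the edge of the threshold. Dnajc3 (1.04) and Dele1 (0.34), which relays mitochondrial stress to HRI, were also higher, and Eif2s1, encoding the subunit that the kinases phosphorylate, was lower (−0.31).

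Of 19 further bZIP transcription factor genes, 16 were tested. PA raised 6 and lowered none (median 0.18), a smaller share called than the 51.0% of all tested genes (25.8% higher and 25.2% lower). Maff, one of the small MAF proteins, rose from 3.26 ± 0.387 to 9.96 ± 0.345 FPKM (1.63 on the log2 scale). Its relatives Mafk and Mafg rose by 0.59 and 0.57, and Atf5, which is translated under stress much as Atf4 is, rose by 0.76. Adding C3G to PA raised 1 gene and lowered 2, a share called close to the 21.2% of all tested genes. Atf5 was higher by 0.15 (adjusted p = 0.0490), close to the threshold. In most alternatives no gene of the list was called higher. Among these were an equal FPKM sum per library and leaving out any single PA or PA + C3G library. By contrast, Maff and Mafg were lower, at −0.49 and −0.28. Against BSA, 8 were higher and 1 lower with PA + C3G (median 0.22), where 19.0% of all tested genes were higher and 17.9% lower. Among the 8 were Atf5 (0.91), Maff (1.14), Mafk (0.51) and Nfe2l1 (0.29).

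Known targets of ATF4 and CHOP made up the largest list, with 36 genes tested of 44 listed. PA raised 12 and lowered 7 (median 0.07), a share called close to the 51.0% of all tested genes. Without BSA replicate 2 the counts were 11 and 12. The PA-raised genes included Pycr1, a proline synthesis enzyme (1.28), Herpud1, which acts in the degradation of misfolded proteins (1.09), Sqstm1, an autophagy receptor (0.93), and Sars1, the seryl-tRNA synthetase (0.66). Asns, the asparagine synthetase and a classic ATF4 target, measured 196 ± 11.6 FPKM with BSA and 183 ± 11.1 FPKM with PA (−0.07, adjusted p = 0.310).

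Of the same targets, C3G raised 10 and lowered 5 relative to PA (median 0.10), where 11.1% of all tested genes were higher and 10.2% lower. The split depended on the scaling and on single libraries. It was 7 higher and 7 lower with an equal FPKM sum per library, 6 and 4 without PA + C3G replicate 1, and 7 and 4 without PA replicate 2 or PA replicate 3. Psph, the last enzyme of serine synthesis, rose by 0.61 (adjusted p = 0.00119), Cars, the cysteinyl-tRNA synthetase, by 0.41 and Asns by 0.28 (adjusted p = 0.00600). Pycr1 and Herpud1 were lower, at −0.69 and −0.34. Compared with BSA, the PA + C3G group had 14 targets higher and 1 lower (median 0.18). The share called was close to the 36.9% of all tested genes (19.0% higher and 17.9% lower). The higher targets included Herpud1 (0.75), Sqstm1 (0.71), Ddit4, an inhibitor of mTORC1 signalling (0.68), Sars1 (0.53) and Asns (0.21).

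**Figure D4:**
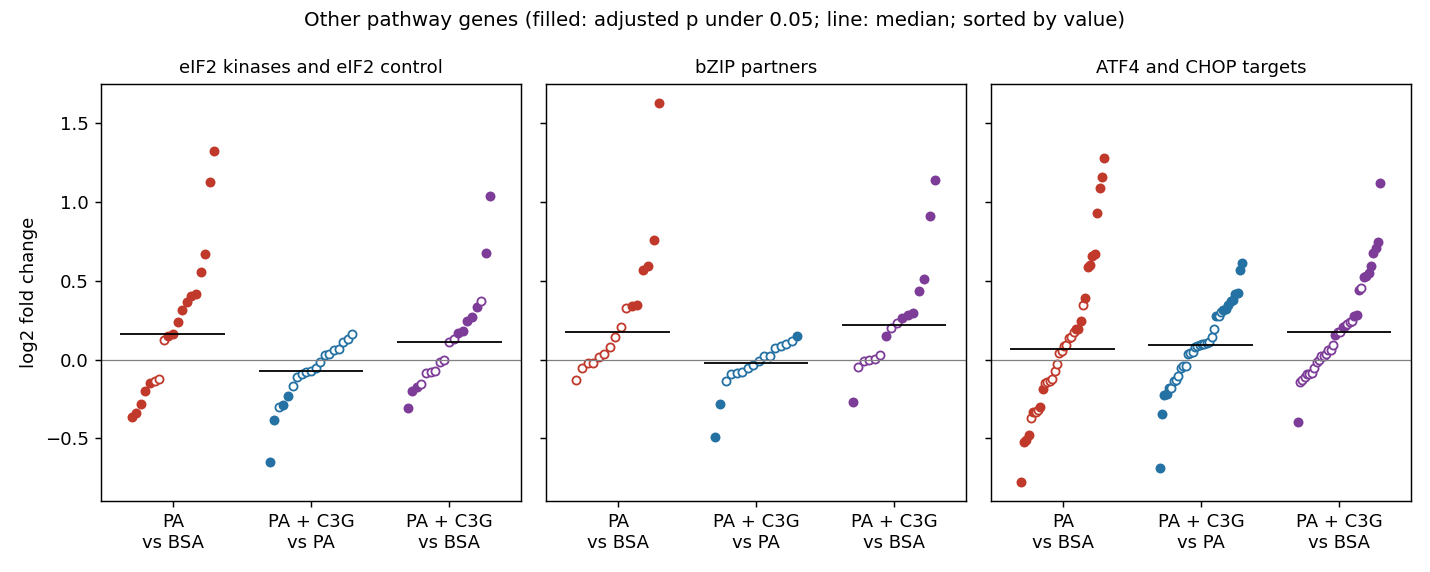
Log2 fold changes (y axis) of the tested genes of 3 pathway lists in the 3 comparisons, sorted by value. Filled circles have an adjusted p under 0.05, and horizontal lines are medians. In the left panel PA raises 11 of 19 eIF2 genes and C3G raises none, while in the right panel C3G raises 10 and lowers 5 of 36 targets (7 and 7 with an equal FPKM sum per library). Over all tested genes, 25.8% were higher with PA than BSA. With C3G added to PA, 11.1% were higher and 10.2% lower.

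For each member the tested non-member genes with the most similar levels were found by Pearson's r of log2(FPKM + 1) over the 9 libraries. These values describe libraries that share 3 treatments, and many genes follow the same order of groups. Closest to Ddit3 were Eif2ak3 (r = 0.997), Acsl4, a long-chain fatty acid ligase (0.997), and Ghitm, a mitochondrial inner membrane protein (0.993). Ppp1r15a was closest to Gtpbp2, a GTPase (0.997), Ubxn4 of the endoplasmic reticulum (0.997) and LOC100360087 (0.997). These genes peaked in the PA group, as with Eif2ak3, or Gtpbp2 at 23.0, 51.5 and 34.4 FPKM with BSA, PA and PA + C3G.

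Outside the members, Atf4 was closest to Nol3, an inhibitor of apoptosis (r = 0.994), Gdf15, a stress-induced hormone (0.986), and Ppp1r3b, a glycogen-targeting phosphatase subunit (0.983). The member Trib3 lay between Nol3 and Gdf15 (r = 0.988 with Atf4). Gdf15 was also closest to Trib3 (0.994), ahead of Tmem184b (0.990) and the lysosomal adaptor Lamtor1 (0.990). It measured 27.6, 60.6 and 57.5 FPKM in the BSA, PA and PA + C3G groups, the plateau seen in Trib3. Atf3 was closest to Rgs7 (0.993), Atp9a (0.992) and Cdh1, encoding E-cadherin (0.992).

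Chac1 had the least close neighbours, namely Wipi1, an autophagy protein (r = 0.973), Sesn2, a leucine sensor that is itself induced by ATF4 (0.972), and Pdgfrl (0.964). After its own copy Nupr1l1 (r = 0.9997), Nupr1 was closest to the serine synthesis gene Psph (0.985) and to Plbd2, a lysosomal protein (0.981). Psph measured 75.4, 58.9 and 87.8 FPKM in the BSA, PA and PA + C3G groups, and so was lowest with PA, as Nupr1 was.

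Within each group the members also varied together. Replicate 2 had the lowest FPKM of its group in 18 of 21 sets of a gene and a group, replicate 3 in 3, and replicate 1 in none. Over all tested genes replicate 2 was lowest in 37.3% of cases, replicate 1 in 34.3% and replicate 3 in 28.3%. All 7 genes were lowest in replicate 2 of the PA group. The exceptions were Nupr1 in the BSA group and Atf3 and Ppp1r15a in the PA + C3G group.

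The deviations of log2(FPKM + 1) from the group means gave r between 0.708 and 0.965 over the 21 pairs of members and 9 libraries, with a median of 0.864. No such r is given for other tested genes, so whether these values are particular to the members was not tested. Levels before the group means were removed gave r from −0.63 to 0.991, with 13 of 21 pairs above 0. Genes that moved in opposite directions between the groups, such as Ddit3 and Nupr1, therefore tended to deviate in the same direction within the groups. For this pair r was 0.708, the lowest of the 21. In BSA replicate 3, Ddit3 lay above its group mean (0.079) and Nupr1 below its own (−0.075). These deviations were small, up to 0.22 on the log2 scale. Replicate 2 was also left out of all groups, an alternative chosen after the data were seen. Then 5 members were higher and 1 lower with PA than with BSA, where 5849 of 12958 tested genes were called. With PA + C3G, 2 were higher and 2 lower than with PA, where 1934 of all tested genes were called. Against BSA, 7 were higher with PA + C3G, where 4053 of all tested genes were called.

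**Figure D5:**
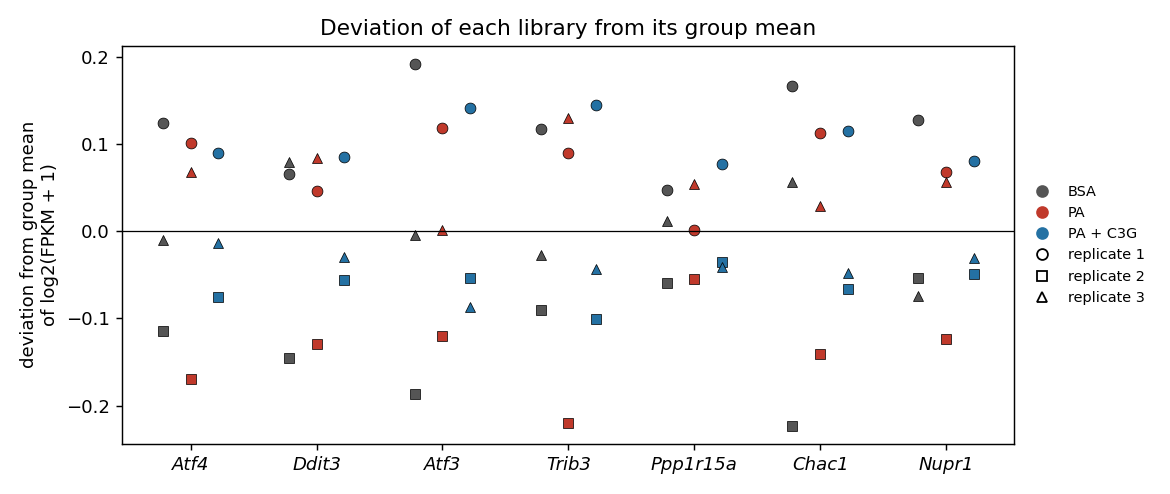
Deviation of each library from its group mean, as log2(FPKM + 1) (y axis), for the 7 genes (x axis). Symbols mark the replicate and colours the group. Squares (replicate 2) lie below 0 for every gene and group, and circles (replicate 1) lie above 0.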

How the data were processed

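For each gene the authors deposited an estimated count without normalization and its FPKM. The submitters' processing notes name cutadapt 1.9, HISAT2 2.0.4, StringTie 1.3.4d, DESeq2 and edgeR, and the genome build is not given in the sources used here. Low estimated counts pile up at 4 (2.44 times the mean at 3 and 5), for a reason not known, and its effect on sampling error was not measured.

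Here, genes averaging 1 FPKM or more were tested with edgeR 4.0.16 in R 4.3.3 (TMM, quasi-likelihood test, all 9 libraries in the fit, Benjamini-Hochberg adjustment over 12958 genes). Ratios to Atf4 were compared by exact permutation tests (scipy 1.17.1). The alternatives tried were median-ratio size factors, DESeq2 1.42.0, an equal FPKM sum per library, other filters, only the compared groups, a replicate block, limma 3.58.1 on log2(FPKM + 1) or log2(FPKM + 0.1), counts divided by 4, and leaving out libraries. The members, lists and tests were chosen with earlier results of these data known. Named besides the members are up to 4 genes per list and comparison with the lowest p among those past the threshold. Also named are the eIF2 kinases, Asns, and the 3 non-member genes most like each member. PA and C3G doses come from the methods. The label of the PA + C3G samples gives the mixture, while their title names only the anthocyanin.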

Additional observations from a re-analysis of the deposited data

How the results depend on the processing

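Of 20 alternatives, none moved the total of members or of listed pathway genes past the threshold by over 1.5 times. The split by direction moved more. For PA + C3G versus PA the listed genes were 11 higher and 11 lower, but 7 and 17 with an equal FPKM sum per library, 7 and 10 without PA replicate 2 or 3, and 6 and 10 without PA + C3G replicate 1. The few lower in PA + C3G versus BSA (5) ranged from 2 to 8. Members called were 6 to 7 of the 7 for PA versus BSA, 4 to 5 for PA + C3G versus PA and 5 to 7 for PA + C3G versus BSA. In the main fit 51.0%, 21.2% and 36.9% of all tested genes were called in these comparisons. Ddit3, Ppp1r15a and Nupr1 kept direction and call for PA versus BSA and PA + C3G versus PA in all alternatives. With the ratio taken to Ddit3 in place of Atf4, the differences of Atf3 (−0.44 for PA versus BSA, 0.45 for PA + C3G versus PA) and Trib3 (−0.54 and 0.68) changed sign, since PA raised Ddit3 more, and C3G lowered it more, than either gene. For PA + C3G versus PA, Atf4 was −0.055 with an equal FPKM sum per library, −0.0039 without replicate 2 in all groups, and −0.041 to 0.084 when single libraries were left out, where Trib3 ranged from −0.13 to 0.030. Neither gene passed the test under any of these. Chac1 in PA + C3G versus BSA missed the threshold with an equal FPKM sum (0.26, adjusted p = 0.0867) and with limma (0.26 at both pseudocounts, adjusted p = 0.0815 and 0.0833), and ranged from 0.20 to 0.39 when single libraries were left out.

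The groups share replicate numbers. Deviations from the group means, taken across genes, correlated between same-numbered libraries at r from −0.05 to 0.105, so the numbers were not treated as pairs. Among the members, replicate 2 was lowest in 18 of 21 sets of a gene and a group. The r across all genes therefore does not settle pairing for them. A replicate block gave 6843 called genes for PA versus BSA, 3118 for PA + C3G versus PA and 5058 for PA + C3G versus BSA, against 6614, 2752 and 4783 without it. Under the block Chac1 was lower with PA than BSA (−0.17, adjusted p = 0.0283) and Atf3 lower with C3G than without it (−0.25, adjusted p = 0.0371), and no other member changed its call.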
